A study of Rattus norvegicus with 743 samples.

Results

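Flutamide, an antagonist of the androgen receptor, was given to 4 male Han Wistar rats at 600 mg/kg/day for 4 days, and liver RNA was sequenced 24 hours after the last dose. The drug was suspended in 0.5% (w/v) methylcellulose in deionized water. The 4 treated libraries were taken by their treatment label, and the 4 controls were the vehicle animals with the same study, batch number (2) and vehicle label. These 8 libraries, each from 1 animal, were 8 of the 743 libraries and 680 animals of the series, and the 4 treated libraries were among 377 treated ones. Nothing in the labels pairs a treated animal with a control. The wider collection holds livers of rats in 99 treated groups, each 1 compound at 1 dose in 1 study, and 3 of these are set beside flutamide below. TCDD, the prototype agonist of the aryl hydrocarbon receptor, was dosed at 0.00015 mg/kg/day in corn oil with acetone (batch number 11). Carbamazepine, an anticonvulsant, was dosed at 600 mg/kg/day in propylene glycol (batch number 1). Oxandrolone, an anabolic androgen, was dosed at 600 mg/kg/day in polysorbate 80 and water (batch number 3). Each of these 3 groups was also 4 Han Wistar rats dosed for 4 days, with 4 vehicle animals of its own, so no control animal is shared with flutamide.

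Flutamide is a nonsteroidal drug used against prostate cancer, and liver injury is its best known adverse effect. The aryl hydrocarbon receptor (AhR) sits in the cytoplasm with HSP90 and p23, enters the nucleus when a ligand binds, pairs with ARNT and binds short DNA elements with the core GCGTG. Its classical liver targets are the cytochromes P450 of family 1 and several conjugating enzymes. NRF2 (gene Nfe2l2) is held by KEAP1 until electrophiles or oxidants free it, and it then binds antioxidant response elements in front of genes of glutathione synthesis, quinone reduction and export. CAR and PXR are nuclear receptors through which many drugs raise P450s of families 2 and 3. In rats a further set of liver genes differs between the sexes, because males and females release growth hormone in different patterns.

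Promoter sequences of 6 genes that are described below are shown so that the 2 motifs can be seen where they lie. They come from RefSeq (assembly GRCr8), are the 250 bases before the annotated start, and run 5′ to 3′ on the gene's own strand. Capitals mark GCGTG, or on the other strand CACGC, the core of the AhR element, in Cyp1b1 (chr6:21094315-21094564, plus strand), Nqo1 (chr19:52220268-52220517, minus strand) and Ugt1a6 (chr9:96194768-96195017, plus strand), and TGACNNNGC (GCNNNGTCA on the other strand), the core of the antioxidant response element, in Gsta3 (chr9:31154739-31154988, plus strand) and Gpx2 (chr6:101230034-101230283, minus strand). Gstp1 (chr1:210769706-210769955, minus strand) holds both motifs, and no 2 matches overlap.
Cyp1b1: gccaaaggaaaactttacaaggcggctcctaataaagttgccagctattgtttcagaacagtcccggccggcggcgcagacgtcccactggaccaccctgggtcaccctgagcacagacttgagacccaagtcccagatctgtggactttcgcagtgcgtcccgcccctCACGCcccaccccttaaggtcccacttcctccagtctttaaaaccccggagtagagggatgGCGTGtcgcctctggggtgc
Nqo1: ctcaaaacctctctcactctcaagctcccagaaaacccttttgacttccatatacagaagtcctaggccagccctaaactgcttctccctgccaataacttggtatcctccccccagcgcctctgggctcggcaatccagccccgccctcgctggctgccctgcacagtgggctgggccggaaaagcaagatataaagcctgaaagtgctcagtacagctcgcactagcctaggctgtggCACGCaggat
Ugt1a6: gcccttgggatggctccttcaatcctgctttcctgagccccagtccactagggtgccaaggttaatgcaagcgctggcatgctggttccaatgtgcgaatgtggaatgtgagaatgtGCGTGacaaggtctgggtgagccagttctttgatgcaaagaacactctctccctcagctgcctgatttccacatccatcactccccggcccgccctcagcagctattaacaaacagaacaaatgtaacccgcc
Gsta3: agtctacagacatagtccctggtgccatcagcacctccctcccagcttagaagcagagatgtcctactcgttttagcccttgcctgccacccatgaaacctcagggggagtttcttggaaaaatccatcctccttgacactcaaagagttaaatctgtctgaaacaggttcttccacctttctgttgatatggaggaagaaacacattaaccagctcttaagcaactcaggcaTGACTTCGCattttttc
Gpx2: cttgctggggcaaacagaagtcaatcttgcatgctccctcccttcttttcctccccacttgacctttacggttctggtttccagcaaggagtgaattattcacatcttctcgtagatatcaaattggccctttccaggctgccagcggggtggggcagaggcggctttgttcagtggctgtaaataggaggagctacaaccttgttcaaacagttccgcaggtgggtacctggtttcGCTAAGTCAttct
Gstp1: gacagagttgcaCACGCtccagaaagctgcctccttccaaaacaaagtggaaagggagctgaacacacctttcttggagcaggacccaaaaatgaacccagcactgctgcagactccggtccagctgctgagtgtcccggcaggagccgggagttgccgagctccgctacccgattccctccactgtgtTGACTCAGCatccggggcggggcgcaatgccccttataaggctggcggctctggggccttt
GCGTG was found in 5 of the 7 AhR target promoters that the table holds, in 15 of 27 NRF2 target promoters and in 0 of 15 promoters of male-predominant genes. It was found in 44.9% of the 9112 promoters of tested genes and in 25.9% of all 33469 promoters, so a match on its own is common. TGACNNNGC was found in 0 of the 7 AhR target promoters and in 7 of 27 NRF2 target promoters, against 12.5% of the promoters of tested genes and 10.1% of all. Among genes that rose after flutamide 49.0% held GCGTG and 14.8% TGACNNNGC, and among genes that fell 40.4% and 11.7%. A match is a description of these letters and was not tested as a binding site.

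The treated libraries held 14.94 to 32.23 M expected counts (M for mega) and the vehicle libraries 16.63 to 19.84 M. RNA integrity differed between the groups: the RIN was 8.9, 9.2, 8.8 and 8.8 in the flutamide animals and 8.2, 8.3, 8.3 and 8.3 in the vehicle animals, with no overlap. Because RIN and treatment run together, their parts in the results cannot be told apart. With RIN as a covariate 205 genes passed the test (159 higher, 46 lower), and 184 of these were also called in the fit without it. Of the 166 called genes that are named here, 26 kept the call with that covariate, 123 lost it and 17 changed sign. Counts of a list with RIN as a covariate are given beside the main groups. The mean RIN was 0.65 higher after flutamide than in vehicle. It was 1.32 higher after TCDD than in its vehicle, where 1121 genes rose and 1547 fell, 0.37 higher after carbamazepine (2664 rose, 2430 fell) and 0.13 lower after oxandrolone (1 rose, 0 fell). The flutamide animals also differed among themselves: animals 1 and 2 lay on one side of animals 3 and 4, without overlap, for 6406 of the 12434 tested genes (51.5%), against 3192 for animals 1 and 3 and 2833 for animals 1 and 4 on one side. The part of this split in the results was not tested. The libraries were run on several flow cells, and among the 2 flutamide and 2 vehicle animals that share one, 2375 genes passed. Those 2 vehicle animals were also run on a further flow cell, so flow cell still differed between the groups. The liver label fits the hepatocyte markers: albumin (Alb) was the most abundant of the tested genes per length in both groups.

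Of 12434 genes with enough counts to test, 5973 (48%) changed after flutamide in edgeR's quasi-likelihood test at an adjusted p under 0.05. In all 2915 (23.4%) rose and 3058 (24.6%) fell, and 704 rose and 1095 fell at least 2-fold. Every treated animal lay above every vehicle animal for 2788 genes (22.4%) and below for 2914 (23.4%). These shares are the background for the counts that follow, since about 1 in 4 of all tested genes moved in each direction. In several lists a count of 1 gene in a direction went to 0 or to 2 with 1 animal left out. Levels are CPM, the usual counts scaled to library size (here after TMM), values after ± are SDs over 4 animals, and log2 fold changes are flutamide over vehicle with their standard error (SE). The median log2 fold change of all tested genes was -0.019. The plot of gene lists shows that enzymes of drug metabolism and the proteasome lay at the top of the lists, and plasma proteins, macrophage markers and male-predominant genes near the bottom.

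**Figure D1:**
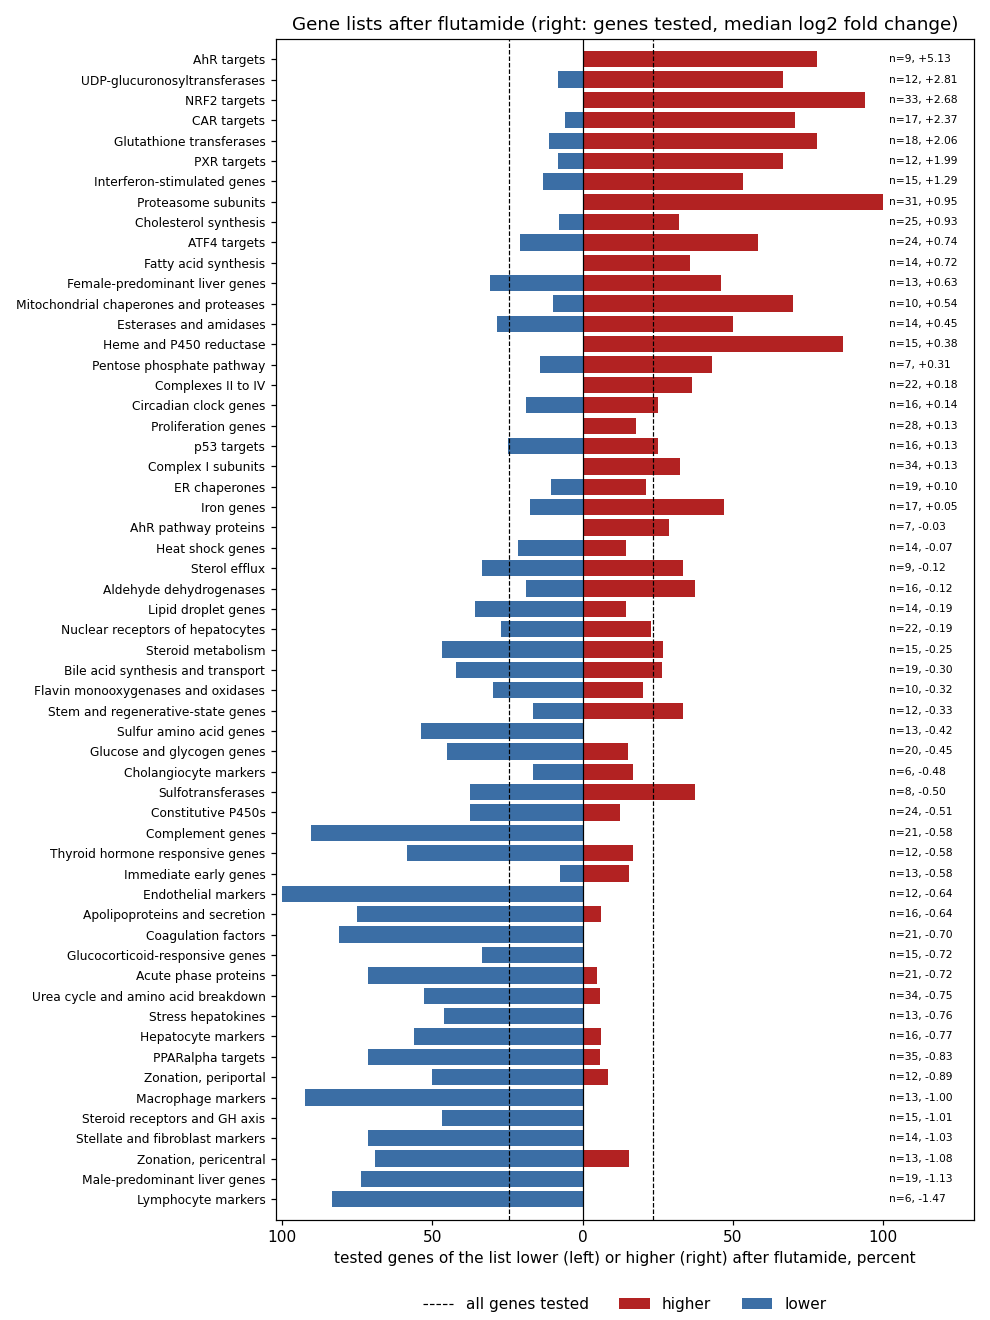
Share of each list's tested genes that rose (right, red) or fell (left, blue) after flutamide, in percent, for lists with at least 6 tested genes, with the number tested and the median log2 fold change at the right. Dashed lines mark the share among all tested genes (23.4% higher, 24.6% lower): all 31 proteasome subunits rose and all 12 endothelial markers fell.

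The classical AhR targets rose, led by Cyp1a1, the P450 most used as a sign of AhR activity. Cyp1a1 was 4.67, 0.260, 1.66 and 0.245 CPM in the vehicle animals and 3491, 4786, 5235 and 5259 CPM in the flutamide animals. Nearly silent in every control, it was abundant in every treated liver, and edgeR put the log2 fold change at 11.37 (SE 0.91, adjusted p = 6.05e-05). Cyp1a2, which metabolises aromatic amines and caffeine and is active in normal liver, was 2064, 813, 1327 and 803 CPM in vehicle and 12500, 12350, 11350 and 14250 CPM after flutamide. The groups were far apart here too, with a gap of 3.33 on the log2 scale (SE 0.31, adjusted p = 5.00e-05). Cyp1b1, a P450 found mainly outside hepatocytes, was 0.318, 0.324, 0.296 and 0 CPM in vehicle and 2.62, 7.69, 1.62 and 13.4 CPM after flutamide, so that it rose (log2 fold change 4.70, SE 0.91, adjusted p = 0.00342) but stayed low in every animal.

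The conjugating and reducing enzymes of the AhR battery rose as well. Nqo1, a quinone reductase that NRF2 also controls, was 26.7, 25.9, 22.6 and 28.1 CPM in vehicle and 1332, 896, 607 and 783 CPM after flutamide (log2 fold change 5.13, SE 0.25, adjusted p = 2.00e-06). Ugt1a6, which glucuronidates planar phenols, was 11.8, 12.1, 11.4 and 18.0 CPM in vehicle and 1252, 1113, 984 and 1096 CPM after flutamide (6.38, SE 0.20, adjusted p = 9.30e-08). In neither gene did any treated animal come near the controls. The related transcript Ugt1a7c went from 8.84 ± 0.972 to 730.2 ± 261 CPM. Transcripts of the Ugt1a locus share their 3′ exons, so the split of reads between them is uncertain. Aldh3a1, an aldehyde dehydrogenase that normal liver hardly makes, had 1 count in all vehicle animals together and 392 in the flutamide animals. That is a ratio of 307 (95% exact interval 54.8 to 12200, counting error only), with 11.2, 6.75, 1.5 and 2.47 CPM in the treated animals. In all, 7 of the 9 tested members of the list rose and 0 fell, the same 7 had every treated animal above every control, and the median log2 fold change was 5.13. With RIN as a covariate 4 of the 9 passed, among them Cyp1a1 (12.15, adjusted p = 0.0464), Nqo1 (4.76, adjusted p = 0.0238) and Ugt1a6 (6.19, adjusted p = 0.00267), whereas Cyp1a2 kept its size (3.93) and did not pass (adjusted p = 0.073).

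**Figure D2:**
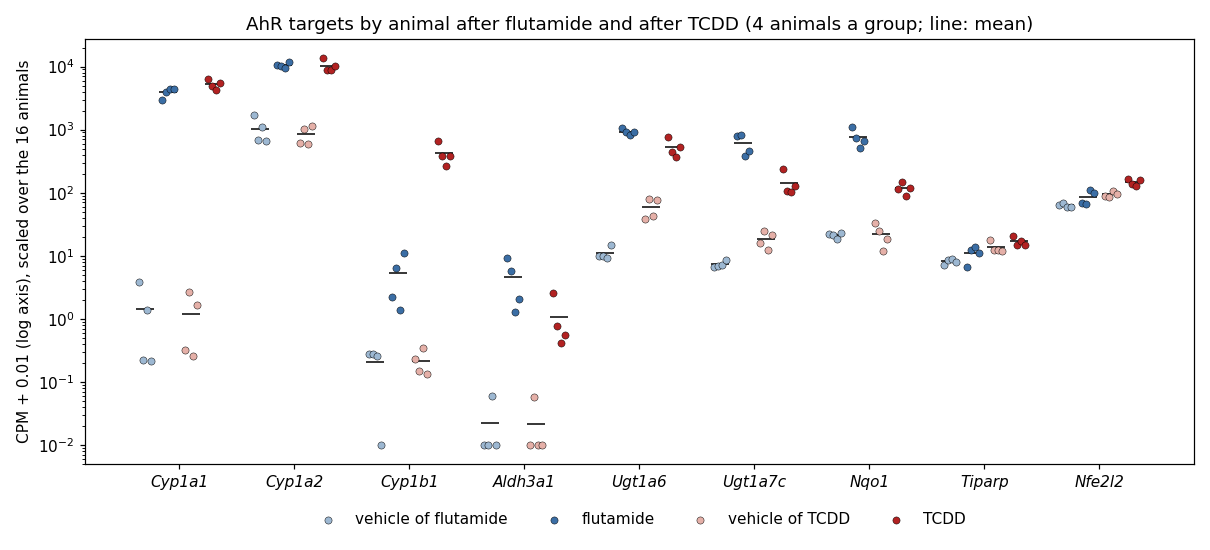
CPM + 0.01 (log axis) of the 9 tested AhR targets in each animal, scaled over the 16 animals of flutamide, TCDD and their vehicles, with lines at the means. Cyp1a1 and Cyp1a2 reach similar heights after both compounds, Cyp1b1 is far higher after TCDD, and Ugt1a6, Ugt1a7c and Nqo1 are higher after flutamide.

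The 2 targets that did not pass are themselves regulators. Tiparp, an ADP-ribosyltransferase that limits AhR activity, was 9.81 ± 0.931 CPM in vehicle and 13.1 ± 3.66 CPM after flutamide (log2 fold change 0.42, adjusted p = 0.103), and without flutamide animal 1, whose 7.87 CPM was the lowest value of all 8, it passed (0.62). Nfe2l2, which encodes NRF2, was 75.8 ± 5.48 CPM in vehicle and 102 ± 25.7 CPM after flutamide (0.43, adjusted p = 0.0503). Its value sits at the threshold, and it passed with DESeq2 (0.46) and in the RefSeq gene table (0.49). The receptor itself, Ahr, was 99.8 ± 29.3 and 126 ± 37.4 CPM (0.34, adjusted p = 0.313). Of the 7 tested AhR pathway proteins, Ptges3, the p23 co-chaperone, rose with a log2 fold change of 0.42 (adjusted p = 0.0295) and Ncoa2, a coactivator, with 0.27 (adjusted p = 0.0107). Only 1 of the 2 passed without flutamide animal 1 or 3 or vehicle animal 1, 3 or 4. Arnt, Hsp90ab1 and Ncoa1 did not pass, and Ahrr, the AhR repressor, had too few counts to test.

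For 3 of the 9 AhR targets the effect of flutamide was larger than that of TCDD, for 1 it was smaller, and for Cyp1a1 and Cyp1a2 no difference passed. Differences below are the flutamide effect minus the TCDD effect on the log2 scale, each against its own vehicle, and 4355 of 13304 genes (32.7%) differed. The 2 compounds came from different studies with different vehicles and batch numbers, which cannot be told apart from the compound. Cyp1a1 went from 1.20 to 5207 ± 874 CPM after TCDD, and its difference from flutamide was -0.63 (SE 0.93, adjusted p = 0.647). Cyp1a2 went from 849 to 10240 ± 2300 CPM after TCDD, a difference of -0.24 (SE 0.41, adjusted p = 0.686). Cyp1b1 was the exception among the P450s: TCDD took it from 0.205 to 420.5 ± 174 CPM, and the flutamide effect was lower, with a difference of -6.34 (SE 1.94, adjusted p = 0.0231). That call was lost without vehicle animal 1, 2 or 3, with the sign kept. The flutamide effect was larger for Nqo1, which TCDD took from 22.1 to 117 ± 24.5 CPM (difference 2.75, SE 0.39, adjusted p = 0.000107), for Ugt1a6 (3.25, adjusted p = 1.88e-05) and for Ugt1a7c (3.44, adjusted p = 6.16e-05). Ugt1a6 and Ugt1a7c started from unlike vehicle levels, which enter these differences. Ugt1a6 was 9.37 to 14.9 CPM in the flutamide vehicle and 38.8 to 78.6 CPM in the TCDD vehicle. It was 829 to 1045 CPM after flutamide and 370 to 773 CPM after TCDD. Ugt1a7c was 6.66 to 8.45 and 12.6 to 24.7 CPM in these vehicles, and 386 to 807 and 104 to 239 CPM after treatment. The difference for Aldh3a1 was 2.24 (adjusted p = 0.676).

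NRF2 targets rose almost throughout: 31 of 33 tested members rose, 0 fell, and in all 31 the 2 groups did not overlap (median log2 fold change 2.68). Glutathione transferases conjugate glutathione to electrophiles. Gsta3 was 6.04, 1.95, 3.38 and 4.22 CPM in vehicle and 474, 428, 373 and 364 CPM after flutamide (6.70 on the log2 scale, SE 0.31, adjusted p = 2.14e-06). Gstp1, the placental form that marks preneoplastic foci in rat liver, was 8.64, 9.15, 10.3 and 8.75 CPM in vehicle and 909, 1601, 98.6 and 163 CPM after flutamide. It rose in every treated animal, but to very different heights, with animals 1 and 2 the higher (6.23, SE 1.01, adjusted p = 0.00187), and the value was 0.74 with RIN as a covariate (adjusted p = 0.883). Gstm1 went from 443 ± 62.0 to 6497 ± 1664 CPM and Gsta5 from 150 ± 66.6 to 5813 ± 1116 CPM. Of 18 tested glutathione transferases 14 rose and 2 fell (median 2.06), the 2 being Mgst3 (-0.66) and Gstz1 (-0.42). Gsta transcripts are close copies of one another, so counts may be split between them.

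Enzymes of glutathione synthesis and recycling rose together. Gclc, the catalytic subunit of the rate-limiting ligase, went from 116 ± 2.18 to 741 ± 212 CPM (log2 fold change 2.68, adjusted p = 1.05e-05), and its modifier Gclm from 53.5 ± 18.1 to 449.7 ± 155 CPM (3.07). Glutathione reductase (Gsr) rose by 2.99 and thioredoxin reductase (Txnrd1) by 2.57 on the log2 scale. Slc7a11, which imports cystine, had 1 count in the vehicle animals and 347 after flutamide (ratio 272, 95% exact interval 48.5 to 10800). Gpx2, a glutathione peroxidase more typical of gut, went from 0.354 ± 0.477 to 13.7 ± 15.8 CPM (5.22, adjusted p = 0.00627), with one animal at 37.3 CPM and the others between 4.42 and 7.37. Srxn1, which repairs oxidised peroxiredoxins, was 1.01, 1.17, 0.415 and 1.59 CPM in vehicle and 16.3, 14.3, 14.4 and 15.9 CPM after flutamide (3.86, adjusted p = 8.59e-06). Hmox1, which breaks down heme, rose from 26.1 ± 2.76 to 168 ± 124 CPM (2.68, adjusted p = 0.00283). Its treated values of 350.1, 145, 90.1 and 86.5 CPM were far apart from one another, and none overlapped the controls. Keap1, which holds NRF2 in the cytoplasm, rose from 45.4 ± 3.11 to 81.1 ± 7.45 CPM (0.84, adjusted p = 9.03e-05). The oxidoreductase Osgin1, with Nfe2l2 the other member that did not pass, was 249.9 ± 159.5 and 369.7 ± 16.8 CPM (0.56, adjusted p = 0.297).

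Transcripts for reducing power and export mostly followed the same direction. Of 7 tested pentose phosphate genes, which supply NADPH, 3 rose, among them Tkt (2.33) and Taldo1 (1.35), and 1 fell (H6pd -0.31), a call that was lost in 11 of 17 alternatives. Malic enzyme (Me1), another NADPH source, went from 20.3 ± 0.598 to 183 ± 43.9 CPM (log2 fold change 3.17, adjusted p = 2.13e-06). Akr7a3, the aflatoxin aldehyde reductase, was 23.6, 27.4, 29.8 and 28.3 CPM in vehicle and 3375, 2305, 1855 and 1403 CPM after flutamide (6.36, SE 0.30, adjusted p = 1.67e-06). Abcc3, which exports glucuronides to blood, was 4.45, 3.18, 4.80 and 4.04 CPM in vehicle and 381, 388, 293 and 309.8 CPM after flutamide (6.37, SE 0.17, adjusted p = 5.31e-08). The spread within each group was small beside this gap. Its relatives Abcc2, at the bile canaliculus, and Abcc4 rose by 1.95 and 2.95 on the log2 scale. With RIN as a covariate 12 of the 33 NRF2 targets passed. After TCDD 12 of 34 tested NRF2 targets rose and 1 fell, and the flutamide effect was the larger in 28 of the 34 and the smaller in 0. Gstp1 was 7.82 and 7.99 ± 0.545 CPM in the TCDD vehicle and after TCDD, a difference from flutamide of 6.21 (SE 0.99, adjusted p = 0.000421).

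CAR and PXR targets rose in the same livers. Of 17 tested CAR targets 12 rose and 1 fell (median log2 fold change 2.37), and of 12 PXR targets 8 rose and 1 fell (median 1.99). Cyp2b1, the classical phenobarbital-inducible P450, was 389, 212, 431 and 224 CPM in vehicle and 1812, 1170, 2272 and 1322 CPM after flutamide (2.39, SE 0.30, adjusted p = 0.000287). Cyp2b2, nearly identical in sequence and so uncertain in its share of reads, went from 102 ± 26.9 to 1074 ± 316 CPM (3.39). Ephx1, microsomal epoxide hydrolase, was 275, 248, 314 and 218 CPM in vehicle and 5727, 5757, 4842 and 6119 CPM after flutamide (4.41, SE 0.16, adjusted p = 4.29e-07). No treated value came within reach of a control. Cyp3a23/3a1, the main steroid-inducible P450 of rat liver, went from 2883 ± 609 to 17865 ± 5480 CPM (2.63), whereas Cyp3a9 fell by 1.51 on the log2 scale. Por, the reductase that feeds electrons to every microsomal P450, went from 314 ± 54.9 to 936 ± 185 CPM (1.58). In all 13 of 15 genes of heme and P450 support rose, including Pgrmc1 (2.09), and 0 fell. Aldh1a1, a retinal dehydrogenase, rose by 2.62, and the carboxylesterases Ces2i (3.53), Ces2j (3.04) and Ces2a (2.91) rose too, in a list of 14 esterases and amidases of which 7 rose and 4 fell. Of 12 tested UDP-glucuronosyltransferases 8 rose and 1 fell (median 2.81). In the fit with RIN as a covariate 5 CAR targets and 0 PXR targets passed.

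Carbamazepine, also given at 600 mg/kg/day, differed from flutamide in its effect on 1053 of 12950 genes (8.13%), and on 405 when RIN was a covariate. Vehicle and batch number differ between these groups and cannot be told apart from the compound. Most AhR targets differed: carbamazepine took Cyp1a2 from 919 to 442 ± 468 CPM, and the flutamide effect was larger by 4.43 (SE 0.76, adjusted p = 0.00323). Cyp1a1 went from 0.273 to 40.6 ± 52.6 CPM after carbamazepine, and although the difference in effect was 4.26, its SE of 2.48 left it short of the threshold (adjusted p = 0.323). It passed with DESeq2 (4.25). For 6 of the 9 AhR targets the flutamide effect was larger, among them Cyp1b1 (6.15, adjusted p = 0.0189), Nqo1 (1.40, adjusted p = 0.0239) and Tiparp (1.13, adjusted p = 0.00703). Carbamazepine itself raised 4 of the 9 and lowered 1, and Tiparp did not pass for flutamide against its own vehicle (0.42). The Cyp1b1 call was lost without carbamazepine vehicle animal 3 (5.58), and the Nqo1 call without flutamide vehicle animal 3 or carbamazepine vehicle animal 3 (1.20). For Ugt1a6 the difference did not pass (-0.43, SE 0.71, adjusted p = 0.773).

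For most NRF2 targets no difference between the flutamide and carbamazepine effects passed, and the CAR targets that differed had a smaller effect of flutamide. Of all genes 8.13% differed in this contrast, a smaller share than among the NRF2 targets. Carbamazepine raised 29 of 33 NRF2 targets, and 5 had a larger and 1 a smaller effect of flutamide, the smaller being Trib3, a stress kinase-like protein (-1.46, adjusted p = 0.015). Akr7a3 (-0.11, SE 0.37), Abcc3 (-0.23, SE 0.24), Ephx1 (-0.18, SE 0.18) and Gclc (0.28, SE 0.23) had differences that did not pass. Among CAR targets 0 had a larger and 5 a smaller effect of flutamide. Carbamazepine took Cyp2b1 from 268 to 11450 ± 932 CPM, and the flutamide effect was lower by a log2 difference of -2.98 (SE 0.37, adjusted p = 0.000176). The others were Cyp2b2 (-2.84), Cyp2c6v1 (-1.91), Gadd45b (-2.31) and Ces2 (-1.82). The largest decreases also separated the compounds in part. The flutamide effect was further down for Adam11 (-2.55, adjusted p = 0.00954), Nox4 (-2.80, adjusted p = 0.00163), Acnat2 (-3.24, adjusted p = 0.023) and Sult1c3 (-1.79, adjusted p = 0.00278), whereas Stac3 (-1.26, SE 1.96) and Car3 (0.29, SE 0.68) had differences that did not pass.

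**Figure D3:**
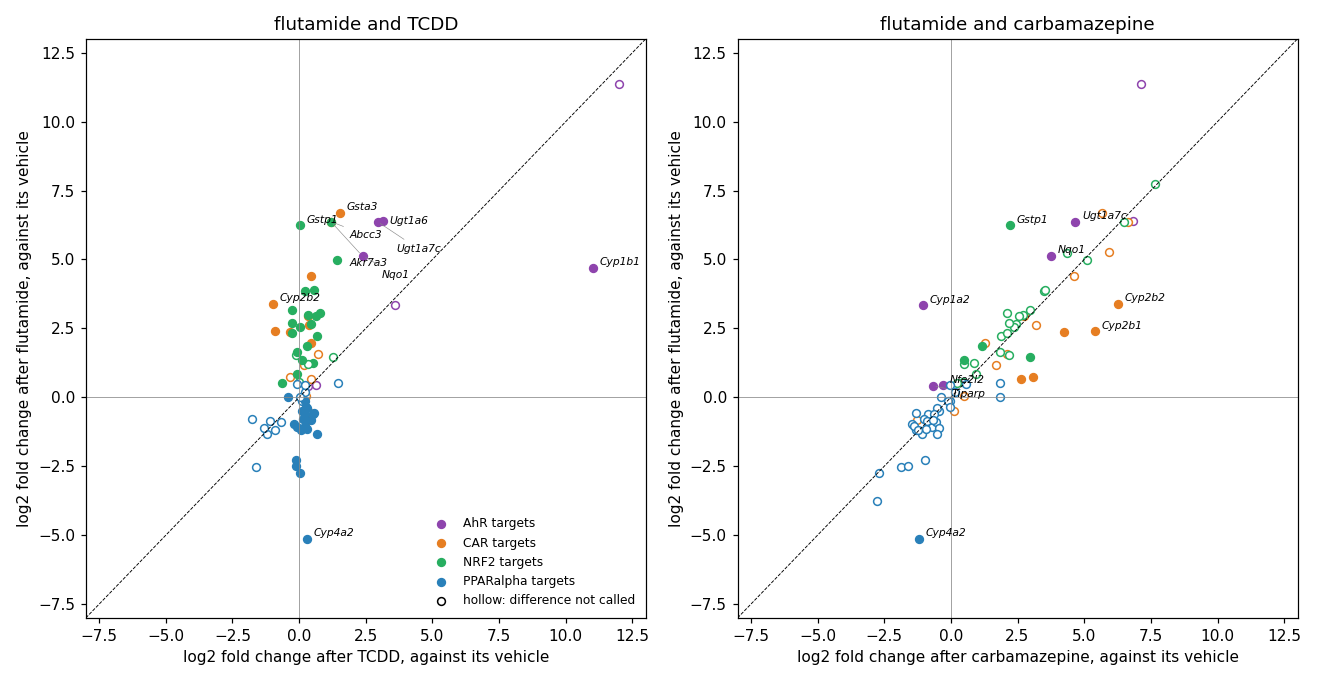
Log2 fold change after flutamide (vertical) against that after TCDD (left) or carbamazepine (right), each against its own vehicle, for genes of 4 lists. Filled points mark genes where a difference between the 2 effects passed, and hollow points those where none did. Most NRF2 targets lie near the vertical zero line for TCDD and near the dashed line of equal effect for carbamazepine, with Cyp2b1 and Cyp2b2 below that line.

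Some of the largest increases were of genes that are not in the lists of these pathways. Whether the pathways act on them was not tested. The 12 largest, ranked by log2 fold change, were Cyp1a1, Ddit4l2, Grin2c, Slc16a5, Aldh3a1, Slc22a12, Csmd1, Akr1b7, Gsta3, Ugt1a6, Abcc3 and Ugt1a7c. Csmd1, a large membrane protein with complement-control domains, was 1.06, 0.260, 0.712 and 1.04 CPM in vehicle and 105, 144, 91.1 and 81.3 CPM after flutamide (7.06, SE 0.32, adjusted p = 2.41e-06). Grin2c, an NMDA receptor subunit of neurons, was 0.0530, 0.0649, 0.237 and 0 CPM in vehicle and 31.8, 20.5, 24.9 and 25.3 CPM after flutamide (8.07, SE 0.35, adjusted p = 1.16e-06). Both were close to silent in every control and clearly present in every treated liver. The transporter Slc16a5 went from 0.0758 ± 0.0361 to 21.0 ± 21.4 CPM, with treated values of 52.4, 11.0, 15.6 and 5.10 CPM. Ddit4l2 had 1 count in the vehicle animals and 670 after flutamide (ratio 525, 95% exact interval 93.9 to 20800). The urate transporter Slc22a12 had 2 counts and 409 (ratio 160, interval 44.1 to 1330), but its treated values of 10.7, 10.3, 0.646 and 2.05 CPM were uneven. All 4 of Csmd1, Grin2c, Slc16a5 and Ddit4l2 also rose after carbamazepine, to 62.2 ± 20.0, 19.3 ± 4.89, 48.9 ± 30.4 and 10.9 ± 7.83 CPM, and no difference between the 2 effects passed. Of the 12 largest increases 8 kept the call with RIN as a covariate, and Slc16a5, Aldh3a1, Slc22a12 and Akr1b7 lost it.

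The largest decreases took several liver genes almost to silence. Stac3, an adaptor best known from muscle, was 10.8, 9.08, 20.3 and 10.2 CPM in vehicle and 0, 0.0587, 0.0294 and 0 CPM after flutamide. Its 852 counts in vehicle stood against 2 after flutamide, a ratio of 544 (95% exact interval 150 to 4500). Adam11, a catalytically inactive member of the ADAM family, was 59.3, 31.2, 65.5 and 35.2 CPM in vehicle and 0.125, 0.235, 0.264 and 0.631 CPM after flutamide (-7.22, SE 0.43, adjusted p = 1.07e-05). Cyp4a2, a fatty acid omega-hydroxylase, was 2839, 5019, 3992 and 1664 CPM in vehicle and 95.3, 32.3, 179 and 78.0 CPM after flutamide (-5.13, SE 0.61, adjusted p = 0.000353). The lowest control was above the highest treated value in all 3. Nox4, an oxidase that makes hydrogen peroxide, went from 18.2 ± 6.30 to 0.561 ± 0.259 CPM (-4.97). Acnat2, a peroxisomal acyltransferase, went from 359 ± 149 to 13.2 ± 7.64 CPM (-4.75). The sulfotransferase Sult1c3 went from 190.4 ± 51.4 to 9.49 ± 1.80 CPM (-4.32), and it was the 1 of the 12 largest decreases that passed with RIN as a covariate (-3.45, adjusted p = 0.0464). In that fit Acnat2 was at -0.89, Car3 at -1.25, Cyp4a2 at -2.42 and Nox4 at -2.54. Serpina7, the thyroxine-binding globulin, went from 11.8 ± 11.6 to 0.636 ± 0.167 CPM (-4.23), where 1 control at 29.2 CPM stood above the others at 4.83 to 6.68. Carbonic anhydrase 3 (Car3) was 334, 249, 323 and 389 CPM in vehicle and 15.7, 7.28, 30.1 and 26.6 CPM after flutamide (-4.01, adjusted p = 0.000206). The remaining 4 of the 12 were Mmd2 (-5.22), the kinase Nim1k (-4.63), Fam89a (-4.11) and Igfbp2, an IGF-binding protein (-3.83).

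**Figure D4:**
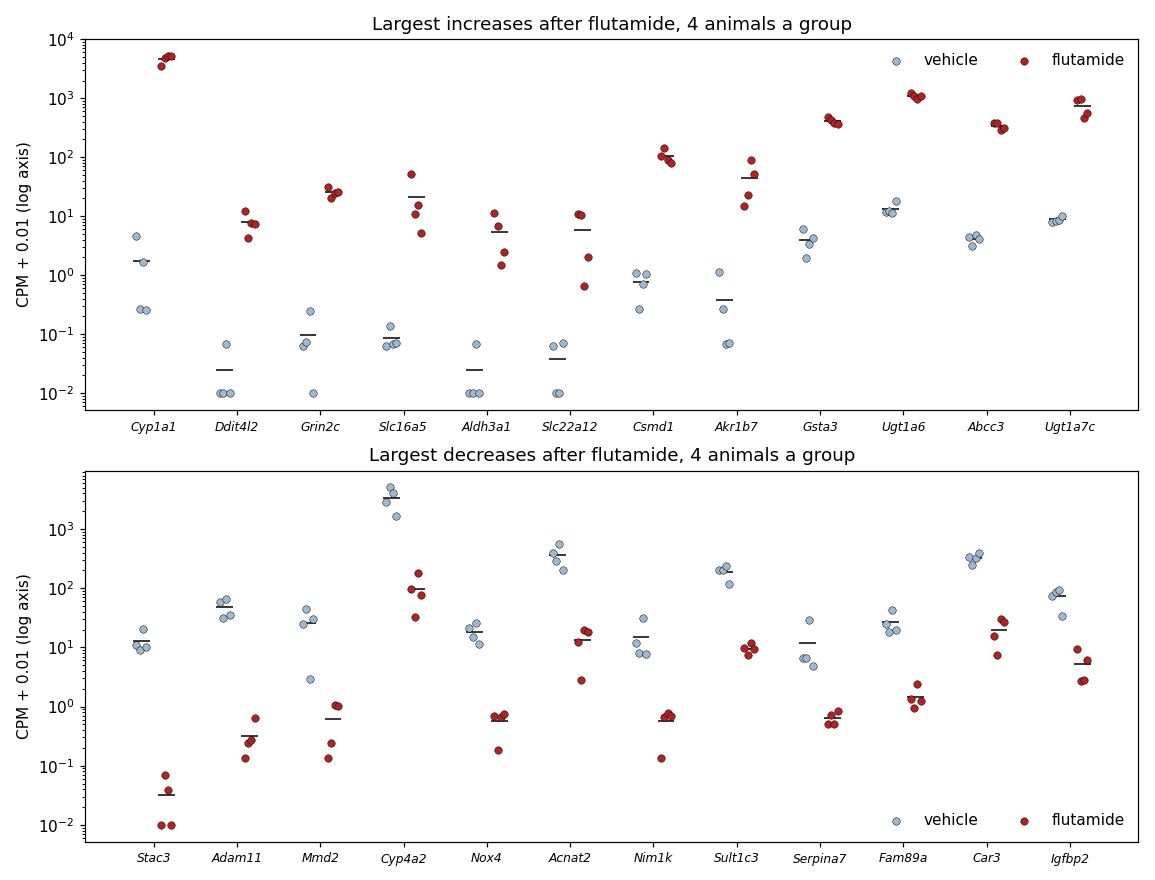
CPM + 0.01 (log axis) in each of the 4 vehicle and 4 flutamide animals for the 12 largest increases (top) and the 12 largest decreases (bottom), with lines at the means. The 2 groups do not overlap in any gene shown, which was a condition of the choice.

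Genes with a sex-typical level moved toward the female pattern for the most part. Of 19 tested male-predominant genes 14 fell and 0 rose (median log2 fold change -1.13), and of 13 female-predominant genes 6 rose and 4 fell (median 0.63). Cyp2c11, the testosterone hydroxylase that defines the male rat liver, was 1225, 1451, 1856 and 780 CPM in vehicle and 224, 42.0, 189.7 and 135 CPM after flutamide (-3.17, SE 0.52, adjusted p = 0.00165). Its counterpart Cyp2c12, the steroid sulfate hydroxylase of female rats, was 23.3, 49.7, 105 and 30.1 CPM in vehicle and 512, 575, 532 and 891 CPM after flutamide (3.59, SE 0.51, adjusted p = 0.00083). Neither gene overlapped between groups. Cyp2c13, another male P450, went from 1474 ± 68.5 to 326 ± 125 CPM (-2.18). The major urinary proteins, pheromone carriers made by male liver, fell as LOC259244 (-2.86), LOC298111 (-3.08) and Mup4 (-2.89), although these near-identical genes may share reads. Bcl6, a repressor that marks the male pattern, was 24.5, 7.65, 15.7 and 93.7 CPM in vehicle and between 3.44 and 5.57 CPM after flutamide (-2.96, adjusted p = 0.0159), and its mean in vehicle rests largely on the last animal. Hsd3b5 (-1.13), Ust5r (-2.02), Hao2 (-1.12), Rup2 (-0.89), Rgn (-0.84), Dhrs7 (-0.56) and Cyp4a8 (-1.98) fell, and Cyp3a18, Hsd11b1, Slco1a1, Cyp2c22 and Gstm3 did not pass.

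Cux2, a female-pattern transcription factor, rose from 2.31 ± 2.42 to 24.8 ± 18.4 CPM (log2 fold change 3.46, adjusted p = 0.013), with 8.87 and 9.33 CPM in flutamide animals 1 and 2 and 44.7 and 36.2 CPM in animals 3 and 4. Trim24 (1.38) and the sulfotransferase Sult2a6 (0.77, adjusted p = 0.0468) rose, where the Sult2a6 call was lost in 12 of 17 alternatives, and A1bg, a plasma protein of females, went from 2 counts to 103 (ratio 40.4, 95% exact interval 10.9 to 338). Akr1b7, an aldose reductase family member, was 1.11, 0.260, 0.0593 and 0.0612 CPM in vehicle and 15.1, 22.6, 88.8 and 52.6 CPM after flutamide (6.81, SE 0.92, adjusted p = 0.000818). Cyp17a1 fell (-0.97, adjusted p = 0.0498), a call lost in 13 of 17 alternatives, and Cyp2c7, Srd5a1 and Prlr, the prolactin receptor, did not pass. In the fit with RIN 0 genes of either list passed, and the value of Cyp2c11 became -0.32 while Cyp2c12 stayed at 3.58.

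The sex labels of the lists were checked in 3 female and 3 male vehicle Han Wistar rats of another study, a description that was added after the data were seen. There 18 of the 19 male-list genes were higher in every male, and 10 of the 13 female-list genes in every female. The other 3, Hao1, Sult1e1 (estrogen sulfotransferase) and Stac3, were higher in males. Counted by this observed direction, 17 of 21 male-higher genes fell after flutamide and 0 rose, and 6 of 10 female-higher genes rose and 1 fell. Some levels lay between those of the sexes and others near the female one. Cyp2c12 averaged 4071 CPM in those females and 628 ± 178 CPM after flutamide, A1bg 1357 and 1.19 CPM, and Akr1b7 354.7 and 44.8 CPM. Cyp2c11 averaged 0.425 CPM in the females and 148 ± 79.5 CPM after flutamide. Near the female mean were Cyp4a2 (76.7 CPM in females, 96.2 CPM after flutamide), Rup2 (1078 and 1032 CPM) and Bcl6 (2.84 and 4.50 CPM). For Stac3 the females (0.421 CPM) and the flutamide animals (0.0220 CPM) were both near zero, and the males at 95.5 CPM. The 2 studies were scaled separately, so these levels are set side by side.

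**Figure D5:**
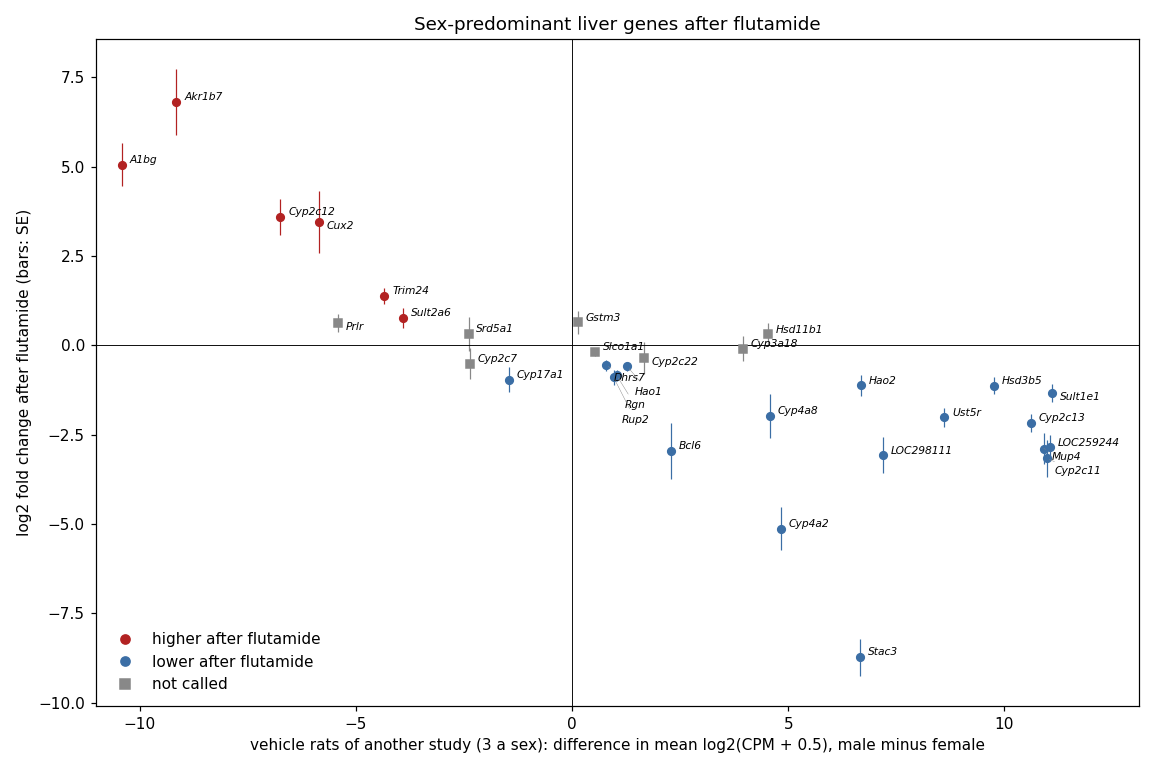
Log2 fold change after flutamide with its SE (vertical) against the male minus female difference in mean log2(CPM + 0.5) in 3 male and 3 female vehicle rats of another study (horizontal), for the genes of the 2 sex lists. Male-higher genes (right) lie below zero or near it, and female-higher genes (left) mostly above it.

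Carbamazepine lowered 8 and raised 2 of the 19 male-predominant genes, and the flutamide effect was lower for 5 of the 19 and higher for 2. Of the 13 female-predominant genes carbamazepine raised 2 and lowered 4, and the flutamide effect was higher for 1 and lower for 0. It took Cyp2c12 from 42.3 to 651 ± 246 CPM, a log2 difference of -0.30 from flutamide (SE 0.56, adjusted p = 0.802), and left Cyp2c11 at 1484 and 1335 ± 412 CPM, where the flutamide effect was lower (-2.97, SE 0.61, adjusted p = 0.00959). Cyp4a2 also differed (-3.88, adjusted p = 0.0451), although the call was lost in 12 of the 16 fits that left out 1 animal. After oxandrolone Cyp2c11 was 1385 and 1597 ± 363 CPM, and the flutamide effect was lower by a difference of -3.34 (SE 0.60, adjusted p = 0.00131). Oxandrolone changed 1 gene at the threshold (Slco1a4), and 3461 of 12900 genes (26.8%) differed between its effect and that of flutamide. Cyp1a1 was 3.16 and 4.12 ± 2.77 CPM in those animals, a difference of 10.98 (SE 1.09, adjusted p = 2.49e-05).

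Part of the transcripts of the growth hormone axis fell, and growth hormone signalling itself was not measured. Of 15 tested genes of steroid receptors and this axis 7 fell and 0 rose (median log2 fold change -1.01). Igf1, the growth factor that growth hormone induces in liver, was 355, 343, 363 and 250.4 CPM in vehicle and 67.8, 74.5, 182 and 132 CPM after flutamide (-1.52, SE 0.32, adjusted p = 0.00458). Its binding proteins Igfbp3 (-1.63) and Igfbp2 (-3.83) fell as well, and no treated animal reached a control in any of the 3. In Igf1 animals 1 and 2 were the lowest. When RIN was a covariate the value of Igf1 was 0.03, that of Igfbp3 0.185 and that of Igfbp2 -2.83, and none of them passed. Among 15 genes of steroid metabolism 4 rose and 7 fell (4 without flutamide animal 1 or 3): Hsd17b2, which inactivates testosterone and estradiol, went from 21.1 ± 3.64 to 90.6 ± 38.3 CPM (2.1), and steroid sulfatase (Sts) from 83.4 ± 5.06 to 20.2 ± 7.25 CPM (-2.03). Akr1d1, a steroid reductase of bile acid synthesis, rose by 1.02 on the log2 scale and Srd5a3 by 1.32.

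All 31 proteasome subunits rose, with log2 fold changes from 0.66 (Psmd1) to 1.48 (Psmd14) and a median of 0.95, and in all 31 the groups did not overlap. Psmd14, a deubiquitinase of the lid, was 28.2, 29.4, 25.5 and 31.8 CPM in vehicle and 80.0, 76.3, 91.2 and 73.8 CPM after flutamide (SE 0.10, adjusted p = 6.92e-06). The ATPase Psmc4 rose by 1.45 and the core subunit Psmb3 by 1.41. With RIN as a covariate 9 passed, these 3 among them. TCDD raised 18 of the 31 and lowered 2, and the flutamide effect was larger for all 31. Against carbamazepine, which raised 30, it was larger for 3. Mitochondrial genes moved little: 11 of 34 complex I subunits rose (median 0.13, highest Ndufa12 at 0.44) and 8 of 22 subunits of complexes II to IV (median 0.18, highest Uqcrc1 at 0.56), and 0 fell. The latter count was 3 without vehicle animal 1 and 4 without vehicle animal 2. Of 10 mitochondrial chaperones and proteases 7 rose, among them Hspa9 (0.62) and Clpp (0.62), and Atf5, the transcription factor of the mitochondrial stress response, fell (-1.12). One of the 7, Yme1l1, did not rise in the RefSeq gene table (-0.08).

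Genes of stress pathways changed in both directions. Of all tested genes 23.4% rose and 24.6% fell. The p53, chaperone, heat shock and proliferation counts below lay near or below these shares. Of 24 ATF4 targets 14 rose and 5 fell (median log2 fold change 0.74). Among them Phgdh, the first enzyme of serine synthesis, was 0.106, 0.454, 0.237 and 0.551 CPM in vehicle and 16.4, 22.6, 5.58 and 7.15 CPM after flutamide (5.26, SE 0.65, adjusted p = 0.000385), and Psat1, a later enzyme of that pathway, rose by 3.99. With RIN in the model the values were 2.23 and 1.52, and neither passed. The amino acid transporter Slc7a5 rose by 3.21, whereas Cth, which makes cysteine, fell from 1270 ± 322 to 308 ± 85.9 CPM (-2.05) and Sesn2 fell too (-1.17). Endoplasmic reticulum chaperones changed in 6 of 19 cases (4 up, among them P4hb at 1.1, and 2 down) and heat shock genes in 5 of 14 (Hspb8 up by 0.80, Dnaja4 down, -1.14). With 1 animal left out the count of higher chaperones was lowest without vehicle animal 1 (2), that of lower ones was 0 without flutamide animal 1 or 2 or vehicle animal 1, and the heat shock counts ran from 1 to 4 higher and from 1 to 3 lower. Among 16 p53 targets 4 rose and 4 fell (2 without flutamide animal 2 or 4 or vehicle animal 1): Mdm2, the p53 ligase, went from 18.9 ± 2.63 to 63.7 ± 11.1 CPM (1.75), Plk3 rose by 2.05, and Phlda3 fell from 25.7 ± 4.71 to 5.42 ± 1.30 CPM (-2.24). Of 28 proliferation genes 5 rose and 0 fell. Tk1, thymidine kinase, was 8.75, 7.78, 6.52 and 9.12 CPM in vehicle and 61.7, 96.9, 28.8 and 34.8 CPM after flutamide (2.78, SE 0.40, adjusted p = 0.000931), and Mcm6 rose by 2.06. Myc rose from 10.1 ± 3.43 to 45.3 ± 6.70 CPM (2.17), and the keratins Krt8 (1.17) and Krt18 (1.00) rose.

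Genes of fatty acid breakdown mostly fell, and a smaller part of the genes of lipid synthesis rose. Of 35 tested PPARα targets, which serve fatty acid oxidation, 25 fell and 2 rose (median log2 fold change -0.83), the latter 0 without vehicle animal 2 or 4. Cyp4a1 was 1078, 1337, 1024 and 821 CPM in vehicle and 94.5, 109, 244 and 180.5 CPM after flutamide (-2.76, SE 0.32, adjusted p = 0.000187), so that the groups were well apart. Ehhadh, the peroxisomal bifunctional enzyme, went from 2061 ± 335 to 370.3 ± 91.1 CPM (-2.48) and Angptl4 from 132 ± 43.6 to 22.7 ± 12.4 CPM (-2.53). Ehhadh was named after its value was seen. Of 14 fatty acid synthesis genes 5 rose and 0 fell, with Me1 (3.17), Elovl6 (2.47) and Thrsp (1.60) at the top. Me1 is also among the NRF2 targets. Of 25 cholesterol synthesis genes 8 rose and 2 fell (median 0.93), where 23.4% of all tested genes rose and 24.6% fell. The count of 8 was 4 without flutamide animal 2 or vehicle animal 1, 2 or 3, 5 without flutamide animal 1 or vehicle animal 4, and 13 without flutamide animal 4.

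Transcripts of sterol and bile acid transport changed in both directions, where 23.4% of all tested genes rose and 24.6% fell. Abcg8 and Abcg5, the partners of the canalicular sterol pump, rose from 21.1 ± 7.38 to 129 ± 31.6 CPM (log2 fold change 2.62) and from 55.1 ± 18.6 to 209 ± 33.4 CPM (1.92). Cyp7a1, which starts bile acid synthesis from cholesterol, was 92.7, 142, 47.7 and 319 CPM in vehicle and 64.6, 47.0, 24.8 and 15.1 CPM after flutamide. The groups overlapped, and the call (-1.99, SE 0.67, adjusted p = 0.0414) was lost when flutamide animal 2, 3 or 4 or vehicle animal 1, 2 or 4 was left out, with -1.32 without vehicle animal 4. Of 19 genes of bile acid synthesis and transport 5 rose and 8 fell (5 without flutamide animal 1, 3 or 4 or vehicle animal 1), the latter including the uptake carrier Slco1b2 (-1.17) and the ligase Slc27a5 (-1.25). Among 16 genes of apolipoproteins and secretion 12 fell and 1 rose: Apoa4 went from 642 ± 96.7 to 161 ± 38.7 CPM (-2.0), Apoc3 from 1653 ± 214 to 446 ± 112 CPM (-1.89) and Apoa5 from 1205 ± 247 to 375 ± 148 CPM (-1.68), and Apoa1 rose by 0.65. Plin2 (-1.12) and Plin5 (-1.26), coats of lipid droplets, fell.

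Transcripts of carbohydrate and amino acid metabolism fell more often than they rose. Of 20 glucose and glycogen genes 9 fell and 3 rose (median log2 fold change -0.45). Pck1, the gatekeeper of gluconeogenesis, went from 3654 ± 603 to 1325 ± 459.8 CPM (-1.46), and G6pc, which releases glucose, from 838 ± 272 to 302 ± 95.0 CPM (-1.47). Of 34 genes of the urea cycle and amino acid breakdown 18 fell and 2 rose (4 without vehicle animal 4, median -0.75), with ornithine aminotransferase (Oat) from 659 ± 308 to 129 ± 34.3 CPM (-2.35), Got1 (-2.33) and Kynu (-2.08) furthest down. In sulfur amino acid metabolism 7 of 13 genes fell and 0 rose, among them Gnmt (-1.67) and Cdo1 (-1.61).

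Transcripts of the perivenous zone, where drug metabolism is concentrated, mostly fell, and so did part of the periportal ones. Of 13 pericentral markers 9 fell and 2 rose, and of 12 periportal markers 6 fell and 1 rose. The pericentral P450 Cyp2e1, which oxidises ethanol and acetaminophen, went from 6895 ± 1048 to 2200 ± 698 CPM (log2 fold change -1.65, adjusted p = 0.000338) while Cyp1a2 rose, and Notum (-2.38) and the transporter Slc1a2 (-2.77) fell. The flavin monooxygenase Fmo1 fell from 229 ± 64.8 to 26.8 ± 20.5 CPM (-3.09). Aldehyde oxidase 1 (Aox1) rose from 521 ± 155 to 2890 ± 515 CPM (2.47) while its neighbour Aox3 fell from 111 ± 36.2 to 21.5 ± 7.86 CPM (-2.37). The soluble epoxide hydrolase Ephx2, a PPARα-responsive gene, fell (-1.84), opposite to Ephx1.

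Transcripts of secreted plasma proteins fell across families. Of 21 acute phase proteins 15 fell and 1 rose (median log2 fold change -0.72), of 21 coagulation factors 17 fell and 0 rose (median -0.70), and of 21 complement genes 19 fell and 0 rose (median -0.58). Alpha-2-macroglobulin (A2m) went from 21.8 ± 9.29 to 2.62 ± 0.350 CPM (-3.07), Itih3 from 5328 ± 337 to 1770 ± 481 CPM (-1.59) and ceruloplasmin (Cp) from 2054 ± 376 to 851 ± 198 CPM (-1.27). Coagulation factors F7 (-1.23) and F10 (-1.15) and the terminal complement component C6 (-2.15) were among the lowest. The 1 that rose, Orm1, overlapped between groups (0.93, adjusted p = 0.0287), and its value was -1.0 with RIN as a covariate. Albumin (Alb), named after its value was seen, went from 145100 ± 4130 to 74480 ± 11320 CPM (-0.96). Because CPM is a share of all reads, the fall of so abundant a transcript and the rise of others are linked. After TCDD 3 of the 21 coagulation factors and 6 of the 21 complement genes rose and 0 fell, and the flutamide effect was lower for 17 and 16 of them. Carbamazepine lowered 18 of the 21 coagulation factors and raised 1, lowered 16 of the 21 complement genes and raised 0, and lowered 14 of the 21 acute phase proteins and raised 1. Between its effect and that of flutamide a difference passed for 0 coagulation factors, 0 acute phase proteins and 6 complement genes. In the fit with RIN 0 genes of these 3 lists passed as lower, and F7 was at 0.61, Cp at -0.53, F10 at -0.41, Itih3 at -0.40 and Alb at -0.40.

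Interferon-stimulated genes, 8 of 15, rose and 2 fell (median log2 fold change 1.29). Oas1a, a sensor of double-stranded RNA, was 2.28, 2.33, 1.48 and 2.82 CPM in vehicle and 23.9, 16.8, 15.2 and 25.9 CPM after flutamide (3.19, SE 0.24, adjusted p = 1.38e-05), and it passed with RIN as a covariate (3.69, adjusted p = 0.0335). Usp18 (2.55) and Oasl (2.86) rose too. Iron genes were mixed, with the ferritin light chain Ftl1 (1.65) and the transferrin receptor Tfrc (1.41) up. Clock genes changed in 7 of 16 cases, near the share of 48% among all tested genes. Npas2, a partner of BMAL1, went from 20.6 ± 9.42 to 1.53 ± 2.25 CPM (-3.74, adjusted p = 0.00809) and Per3 from 5.75 ± 1.80 to 32.6 ± 23.1 CPM (2.49, adjusted p = 0.00854). Both changed sign with RIN as a covariate (0.19 and -0.69), and the labels used here give no clock time.

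Markers of other liver cells were lower. Of 13 macrophage markers 12 fell and 0 rose, and their summed level was 627.3 to 731 CPM in vehicle and 286.1 to 384.6 CPM after flutamide. The Kupffer cell lectin Clec4f went from 112 ± 6.79 to 56.5 ± 9.20 CPM (log2 fold change -0.99) and the colony-stimulating factor receptor Csf1r from 70.9 ± 8.27 to 26.9 ± 6.61 CPM (-1.40). All 12 tested endothelial markers fell (summed 571.4 to 640.5 and 389.1 to 468.1 CPM), as did 10 of 14 stellate and fibroblast markers (559.6 to 580.6 and 200.2 to 342.5 CPM), led by the receptor Pdgfrb (-1.75). Of the 16 lymphocyte markers 6 had enough counts, and 5 fell (18.16 to 21.73 and 6.997 to 12.14 CPM). The defining markers Cd3e and Ms4a1, the neutrophil markers S100a8, S100a9 and Mpo, and the pancreas markers Prss1 and Ins1 had too few counts to test. Of 4 tested erythroid markers 3 fell (354 to 483.3 and 117.6 to 287.6 CPM), a count of 1 to 4 with 1 animal left out. The 1 tested pancreas marker fell. Biliary markers changed little, with 1 of 6 up (Epcam 0.82) and 1 down. Hepatocyte markers fell in 9 of 16 cases and rose in 1, and summed to 214600 to 227800 CPM in vehicle and 118000 to 143100 CPM after flutamide. In whole liver, fewer cells of a type and less RNA per cell cannot be told apart. After TCDD 0 of the 13 macrophage markers changed, and the flutamide effect was lower in 11 of them. Carbamazepine lowered all 13, and the flutamide effect was lower in 1. It lowered 5 endothelial and 5 stellate markers. When RIN was a covariate 1 macrophage marker and 0 endothelial and stellate markers passed as lower. The part of these shifts in the other gene groups was not tested.

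Per transcript length, the treated liver carried a different set of abundant messages. By FPKM, the deposited length-scaled unit, Cyp1a1 moved from place 11240 to place 36 of the 12434 tested genes and Cyp1a2 from place 117 to 9. Gstm1 moved from place 187 to 10, Gsta5 from 480 to 11, Ephx1 from 465 to 20, Akr7a3 from 2450 to 37 and Cyp3a23/3a1 from 53 to 6. In the other direction Cyp4a2 moved from place 44 to 1189 and Cyp2c11 from 96 to 773. Albumin (Alb) held place 1 in both groups, at 65850 and 38310 FPKM.

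Among the 99 treated groups, each set against its own vehicle as the difference in mean log2(CPM + 0.5), flutamide stood at or near the end for several named genes. Many of these genes were chosen for the size of their change after flutamide, so an end place follows in part from the choice. These are places with no test, and groups of one study share vehicle animals. Nqo1 (5.07, next NB-360 with 4.00), Ugt1a7c (6.24, next ticlopidine with 4.69), Gsta3 (6.64, next ticlopidine with 6.56) and Csmd1 (6.40, next ticlopidine with 6.34) were highest after flutamide. Cyp1a1 was second (11.50) to TCDD (11.91), and 62 of the 99 groups had a value over 1. Cyp1a2 (3.47) stood at place 3, where omeprazole was highest (3.98), and Cyp1b1 at place 6. The NRF2 list had its highest median after flutamide (2.65), as had the glutathione transferases (2.06) and the UDP-glucuronosyltransferases (2.62). Lowest of all 99 were Cyp4a2 (-5.23), Adam11 (-5.79), Acnat2 (-4.88), Fam89a (-3.71), Igfbp2 (-3.71) and Phlda3 (-2.12). The male-predominant list was eleventh from the bottom (median -1.16), and Cyp2c11 was lowest after naproxen (-10.02, against -3.31 after flutamide). Over all 12434 genes flutamide was the highest group for 176 and the lowest for 129, against a mean of 251 per group for both ends together, which put it at place 25.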

How the data were processed

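Liver RNA of 8 rats was analysed: total RNA from frozen tissue, libraries made with a stranded mRNA kit, per the labels' protocols. The authors deposited expected counts per gene (estimated counts that need not be whole) for Ensembl and for RefSeq genes, and FPKM values for the same genes. The deposited FPKM values, per the file headers, served only to compare levels between genes per length. The build was Rnor 6.0 per the submitters' processing notes, and the aligner and counter are not given in the sources used here. Of the non-zero Ensembl values 87.49% were whole. Counts of libraries of one animal were summed and rounded.

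Groups were compared in R 4.3.3 with edgeR 4.0.16 (filterByExpr, TMM, robust quasi-likelihood F test, 2-sided, Benjamini-Hochberg adjustment over all genes tested, threshold 0.05), with limma 3.58.1 loaded as its base. The SE is the log2 fold change divided by the square root of F. Contrasts between compounds were interaction terms in fits of 4 groups of 4 animals, and CPM in each contrast was scaled over those 16 animals. The script was tested on simulated data. Alternatives were RLE scaling, DESeq2 1.42.0, no filter on low counts, the RefSeq table, a log2 fold change of at least 1, RIN as a covariate, other sets of vehicle animals, each animal left out, and the 4 animals that share a flow cell (added after the data were seen). Figures were drawn with matplotlib 3.10.9.

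The members and the 60 gene lists were chosen with earlier results of these data known. Named genes were the 12 largest increases and decreases with a symbol, at least 5 CPM in the higher group and no overlap, all members of the AhR and sex lists, and up to 3 members that rose and 3 that fell, with at least 5 CPM, from every other list. Symbols that are clone, locus or predicted-gene names were passed over among the largest changes. In contrasts, members of the AhR, NRF2, CAR and sex lists and the largest changes were named. Albumin, Cyp3a23/3a1, Ehhadh, Psmd1, Slco1a4 and Clec4f lie outside this rule and were chosen after their values were seen. A few genes that the rule names are not reported here. Where rows share a symbol (4265 rows), the row with the most counts was taken, and the row of the whole Ugt1a locus was replaced by its 10 transcripts. Intervals on ratios are 95% exact binomial intervals and cover counting error only.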

Additional observations from a re-analysis of the deposited data

Results flagged for a closer look

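In 25 of 366 groups of 4 animals (6.83%) over the 183 genes described above, 1 animal stood further from the others than Dixon's 95% criterion allows. Chance gives about 1 in 20 for normally distributed values, which low counts are not. Among the vehicle animals, animal 3 was high for Serpina7 (29.17 CPM, others 4.835 to 6.681), Nim1k (31.42, others 7.651 to 11.71), Stac3 (20.28, others 9.081 to 10.76), Sts (90.89, others 79.98 to 81.74) and Gpx2 (1.067, others 0.06121 to 0.159). The same animal held the 1 count, 0.05929 CPM, of Slc7a11, Ddit4l2 and Aldh3a1, where the others had 0. Where all others are 0 any count meets the criterion, here and for Yme1l1. Vehicle animal 4 was high for Thrsp (70.21 CPM), Cyp2e1 (8455), Ugt1a6 (18) and Yme1l1 (1.959, others 0) and low for Per3 (3.06) and Cyp1b1 (0, others 0.2965 to 0.3243). Vehicle animal 2 was high for Krt18 (160.6 CPM) and Slc16a5 (0.1297).

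Among the flutamide animals, animal 2 was high for Gpx2 (37.32 CPM, others 4.415 to 7.371), Gstm3 (3.932) and Ndufa12 (34.92) and low for Nox4 (0.1761, others 0.6462 to 0.7358). Flutamide animal 4 was high for Cyp2c12 (891.4 CPM, others 512.1 to 574.9) and Npas2 (4.888, others 0.1174 to 0.8225) and low for Hsd17b2 (33.79, others 101.4 to 115.4). Flutamide animal 1 was high for Txnrd1 (753.3 CPM) and low for Abcg5 (159). The cause of these values was not tested.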

How the results depend on the processing

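RIN separated the groups without overlap, so a fit with RIN as a covariate compares no flutamide animal with a vehicle animal at like RIN. Its values extend the trend with RIN within the groups, and RIN and treatment cannot be told apart. In that fit 205 genes passed (159 higher, 46 lower), and 3438, 405 and 245 genes differed from the TCDD, carbamazepine and oxandrolone effects. Log2 fold changes with another sign there were Apoa5 0.06, Epcam -0.43, F7 0.61, Gpx2 -0.11, Hspa9 -0.038, Igf1 0.028, Igfbp3 0.18, Mcm6 -0.94, Ndufa12 -0.20, Notum 0.065, Npas2 0.19, Orm1 -1.0, Per3 -0.69, Plin2 0.72, Rup2 0.40, Slc1a2 2.31 and Uqcrc1 -0.12. In the RefSeq table Yme1l1 was -0.079 and the difference of Mup4 from the carbamazepine effect 1.06. A log2 fold change of at least 1 left 1799 genes (704 higher, 1095 lower), because fewer genes can pass. The 4 animals that share a flow cell gave 2375 genes (1217 higher, 1158 lower), with fewer samples, and 2304 of these genes were among the 5973. The vehicle animals among the 4 also had counts from a further flow cell.

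With 1 animal left out, 5137 to 5800 genes passed (2499 to 2929 higher, 2638 to 2871 lower), and 3857 to 4445 differed from the TCDD, 741 to 1174 from the carbamazepine and 3018 to 3566 from the oxandrolone effect. RLE scaling gave 5970 genes, DESeq2 6144, no filter 5912, and 6588 passed with the RefSeq genes. All vehicle animals of batch 2 gave 8301 genes, and the fit over 16 animals 6712. No paired analysis was possible because the labels give no replicate numbers or pairing. Genes with few counts in 1 group are limited by depth.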
